A study of Mus musculus with 32 samples.

Results

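Voltage-gated sodium channels, voltage-gated calcium channels and hyperpolarization-activated cyclic nucleotide-gated (HCN) channels were described here across the RNA-seq and DART-seq data of cultured mouse hippocampal neurons. The members were the protein-coding genes whose symbols follow the patterns of the sodium channel alpha and beta subunits (Scn genes), the calcium channel pore subunits (Cacna1a to Cacna1s), the auxiliary calcium channel subunits (Cacna2d1 to Cacna2d4 and Cacnb1 to Cacnb4) and the HCN channels (Hcn genes). This rule gave 36 genes of the 55573 in the count table: 10 sodium channel alpha subunits, 4 beta subunits, 10 calcium channel pore subunits, 8 auxiliary calcium channel subunits and 4 HCN channels. A member also had to be listed in the study's neurite-enrichment results, which hold 22678 genes for untreated and 22587 for KCl-treated cultures. The study's methods exclude genes with a mean count under 10 from its analyses. Beyond this listing, the rule used no measured level or change.

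Sodium channel alpha subunits form the pore that carries the rising phase of the action potential, and beta subunits modify its gating and its anchoring at the membrane. Calcium channel pore subunits let calcium in upon depolarization, which triggers transmitter release and signalling to the nucleus, while the beta and alpha2delta subunits bring the pore to the surface and tune its gating. HCN channels open upon hyperpolarization and pass a mixed cation current that sets resting potential and dendritic integration, and in hippocampal pyramidal neurons HCN channel proteins are enriched in distal dendrites.

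Neurons from newborn C57BL/6 (WT) or Mettl3Flox/Flox pups, pooled by litter, were grown on porous membranes, so that RNA could be taken from the top (soma, which may also hold neurites that did not cross) and from the bottom (neurites). Cultures of both genotypes received an AAV that expresses Cre from the neuronal hSyn promoter at DIV 7, so the WT controls carried Cre too, and genotype and strain label cannot be told apart. Ctrl and KCl cultures came from the same litters. All cultures were silenced for 16 h with 1 µM tetrodotoxin, a blocker of most of the sodium channels studied here, and 50 µM D-AP5, an NMDA receptor blocker, and were then left as they were (Ctrl) or depolarized with 55 mM KCl for 2 h. The RNA-seq comprised 16 libraries in 8 groups of 2 inserts from distinct litters (WT or Mettl3 KO, soma or neurites, Ctrl or KCl). DART-seq, which marks m6A through C-to-U editing next to the methylated base, was deposited as averages over libraries. The study describes the WT and Mettl3 KO averages as taken over all samples of the genotype. It describes the soma and neurite averages as holding both Ctrl and KCl samples.

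Library totals ranged from 33789183 to 71394235 assigned fragments, of which the 36 members took between 0.0409% and 0.198%. Mettl3 itself was lower in the libraries labelled Mettl3 KO, at 1.76 and 2.16 FPKM (fragments scaled to exon length and library depth) in Ctrl soma against 3.30 and 3.18 in WT, and at 0.771 and 1.33 against 2.37 and 2.45 in neurites. The groups did not overlap, but neither difference passed the test across all genes (edgeR, adjusted p = 0.624 and 0.423). These counts are over the whole gene, including exons outside the floxed one. The study reports loss of the floxed exon, near complete loss of METTL3 protein and reduced m6A in these neurons. All genes of 5 marker lists were detected in the libraries, and 10 neuronal markers summed to between 1002 and 1502 FPKM in WT. The 11 astrocyte markers summed to 268 and 269 FPKM in WT Ctrl soma and to 774 and 503 in WT Ctrl neurites, and to 379 and 378 against 575 and 693 after KCl. In bulk RNA, fewer cells of a type and less RNA per cell cannot be told apart. KCl-treated Mettl3 KO insert 1 stood apart: its neuronal markers summed to 509 FPKM in soma and 270 in neurites, against 1399 and 1674 in insert 2, its astrocyte markers to 2394 and 4537, against 615 and 695, and its 7 oligodendrocyte lineage markers to 756 and 1399, against 12.4 and 15.6.

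The channel mRNAs spanned 3 orders of magnitude in WT Ctrl soma, from 0.0261 ± 0.00283 FPKM for Scn4a to 39.7 ± 0.924 for Cacnb3 (mean ± SD, n = 2 libraries, also below). Of the 36, 25 were above 1 FPKM and 6 above 10 FPKM. Among the pore-forming sodium channel subunits, Scn2a led with 15.8 ± 0.661 FPKM, followed by Scn8a with 7.47 ± 0.634, Scn3a with 6.61 ± 0.378 and Scn1a with 5.27 ± 0.331. These encode the main sodium channels of the brain, Nav1.2, Nav1.6, Nav1.3 and Nav1.1. Scn4a, Scn7a, Scn10a and Scn11a, known from skeletal muscle and peripheral tissues, stayed under 0.1 FPKM in WT Ctrl soma. Scn10a was at or under 0.1 FPKM in every one of the 16 libraries.

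The beta subunits Scn2b and Scn3b were more abundant per exon length than any alpha subunit, at 28.4 ± 3.66 and 26.3 ± 1.40 FPKM in WT Ctrl soma, whereas Scn4b was at 0.0716 ± 0.0356. The ranges of Scn2b and Scn3b over their 2 libraries overlapped, so their order was not resolved. Among calcium channel pores, Cacna1b, which encodes the N-type channel of presynaptic terminals, led with 8.32 ± 0.638 FPKM, followed by the T-type Cacna1h with 6.25 ± 0.0942 the R-type Cacna1e with 3.11 ± 0.208 and the L-type Cacna1c with 2.79 ± 0.123. Cacna1g, Cacna1a, Cacna1d, Cacna1s and Cacna1i followed between 2.23 and 1.59 FPKM, and neighbours in this order overlapped. Of the exon bases of Cacna1s, the pore subunit of skeletal muscle, 20.0% are shared with the gene model Gm37759, and counting did not use strand, so its 1.82 ± 0.274 FPKM cannot be assigned to Cacna1s alone. The same holds for Hcn3, with 17.1% of its exon bases shared with Pklr, and Cacnb4, with 16.0% shared with A430018G15Rik.

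Cacnb3 was the most abundant member and Cacnb1 the next auxiliary calcium channel subunit, with 18.8 ± 1.74 FPKM. Cacna2d1, Cacna2d3 and Cacnb4 overlapped at 6.35 ± 0.429, 6.20 ± 0.661 and 5.76 ± 0.260 FPKM. Among the HCN channels, Hcn3 was at 6.31 ± 0.330 and Hcn2 at 4.13 ± 1.67 FPKM, against 1.01 ± 0.110 for Hcn4. The WT Ctrl soma libraries differed most for Hcn2 of the 31 members with a mean count of at least 100, with a replicate difference of 0.82 on the log2 scale.

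**Figure D1:**
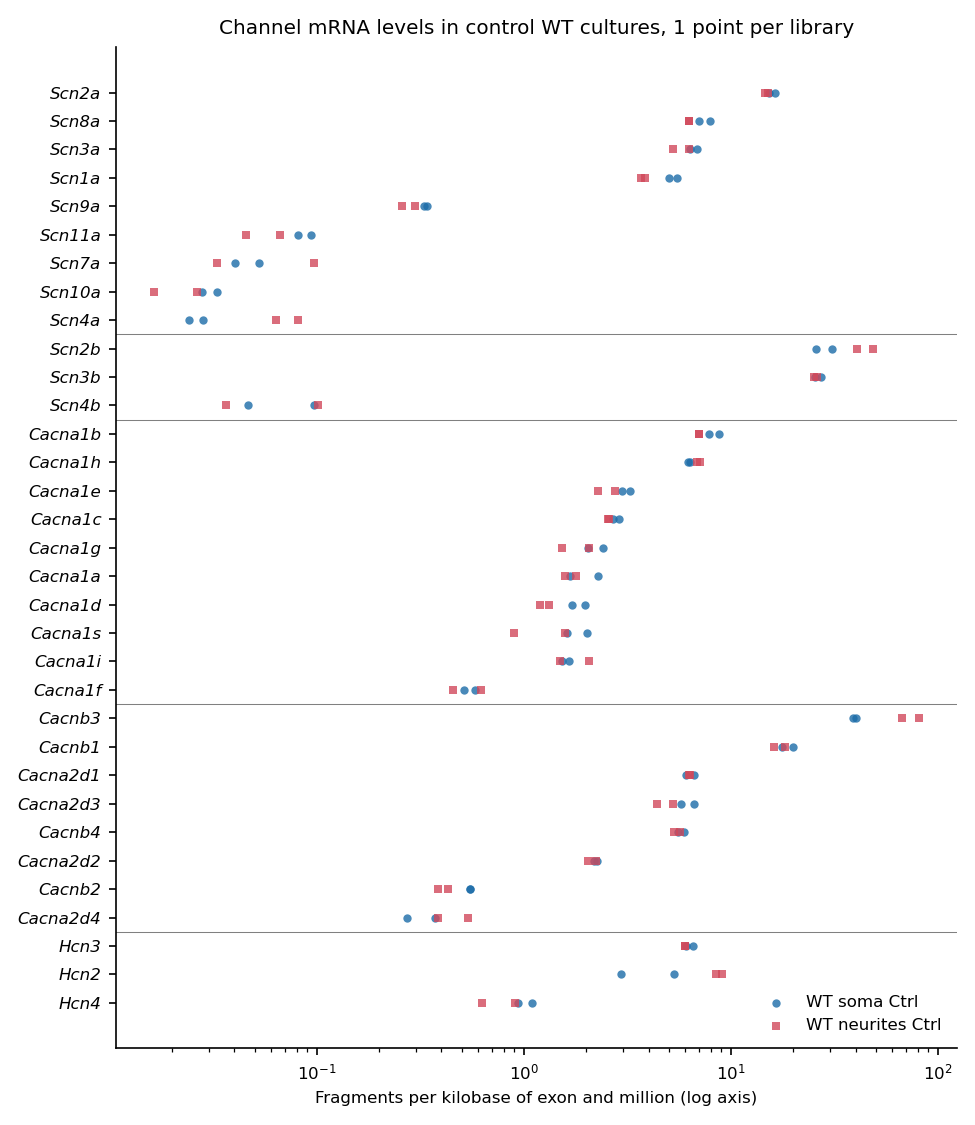
Levels of 33 of the channel mRNAs in WT Ctrl cultures, with 1 point per library, FPKM on a log axis, circles for soma and squares for neurites, grouped by family and ordered by the mean in soma. Most squares lie close to or left of the circles of the same gene, while those of Cacnb3, Hcn2 and Scn2b lie to the right.

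In the DART-seq data, 14 of the 36 channel mRNAs (38.9%) held at least 1 called site, against 34.8% of the 15800 protein-coding genes in the study's enrichment tables. They included Cacnb1 to Cacnb4, Cacna2d2, Cacna2d3, Cacna1a, Cacna1c, Cacna1h, Hcn2, Scn2b, Scn3b and Scn8a. Their median level in WT Ctrl soma was 6.23 FPKM, against 1.30 in the 22 members with no called site. Levels overlapped between the groups, with members holding sites between 0.549 (Cacnb2) and 39.7 FPKM and those without reaching 15.8 FPKM (Scn2a). Site calling required coverage by 50 reads, and the part of level in these calls was not tested. The sequences around the most edited site of the 5 members with the highest WT score are shown, because these sites carry the editing values below. The genome is GRCm38, the strand is that of the RNA, and capitals mark the A (or G), the methylated A and the edited C of the RAC motif that site calling required, with the edited C at position 11 of 21.
Cacnb3, chr15:98640428-98640448, plus strand: ccggctcaAACaggaacagaa
Cacnb1, chr11:98012206-98012226, minus strand: gctgcaggAACagaccctgcg
Scn2b, chr9:45127801-45127821, plus strand: gtctcaggGACcaatacttgc
Cacna2d2, chr9:107528380-107528400, plus strand: ggcagaagAACcccaccagac
Hcn2, chr10:79726259-79726279, plus strand: tgctgcaaGACttccccagcg

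By the GENCODE M21 annotation, the sites shown for Cacnb3, Cacnb1 and Hcn2 lie in coding sequence and those of Scn2b and Cacna2d2 in the 3′UTR. Their WT editing averaged 4.11%, 10.1%, 5.71%, 11.7% and 4.48% in the order of the sequences, with no error available. Over all 45 sites on members, 24 were in coding sequence and 21 in the 3′UTR, and editing ranged from 0.962% to 11.7% with a median of 3.19%, against a median of 3.54% over all 18231 sites. The edited base in the genome was C at each of the 45 sites. GAC was the trinucleotide at 57.8% of member sites and 53.7% of all sites, and GGAC was the sequence at 20.0% and 16.2%.

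Sites were spread unevenly over the families. Cacnb3 had 10 sites, Scn2b 8, Hcn2 7 and Cacnb1 5, while Cacna1c, Cacna1h, Cacnb2, Cacnb4, Scn3b and Scn8a had 1 each. Of the 10 sites of Cacnb3, 7 fell in coding sequence, as did 6 of the 7 of Hcn2, whereas 7 of the 8 of Scn2b fell in the 3′UTR. The study describes the score of an RNA as the sum of its average C-to-U fractions. It was 0.283 in WT and 0.0809 in Mettl3 KO for Cacnb3, 0.244 and 0.0980 for Cacnb1, 0.213 and 0.0399 for Scn2b, 0.181 and 0.0118 for Cacna2d2, and 0.151 and 0.0412 for Hcn2. The deposited WT site fractions do not add up exactly to the WT scores. They summed to 0.182 for Hcn2, and to 0.0872 for Cacnb4 against a WT score of 0.109. All 14 members scored lower in Mettl3 KO than in WT, which the calling of sites against the knockout requires, so nothing is read from it.

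Between compartments, the scores went different ways. Cacnb3 scored 0.188 in soma and 0.353 in neurites, Cacnb1 0.169 and 0.332, Hcn2 0.116 and 0.177, and Cacna1h 0.0258 and 0.110. Scn2b scored nearly the same in both, with 0.219 in soma and 0.206 in neurites. Cacnb4 was lower in neurites, with 0.113 in soma and 0.0299 in neurites at its 1 site. The score was higher in neurites for 8 of the 14 members and for 68.8% of all 5643 RNAs with sites, and the median ratio of neurites to soma was 1.17 over the members and 1.30 over all RNAs. These averages have no replicates, and the read depth behind them is unknown, so no difference between compartments could be tested. They pool Ctrl and KCl samples, unlike the RNA-seq comparisons of compartments below.

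**Figure D2:**
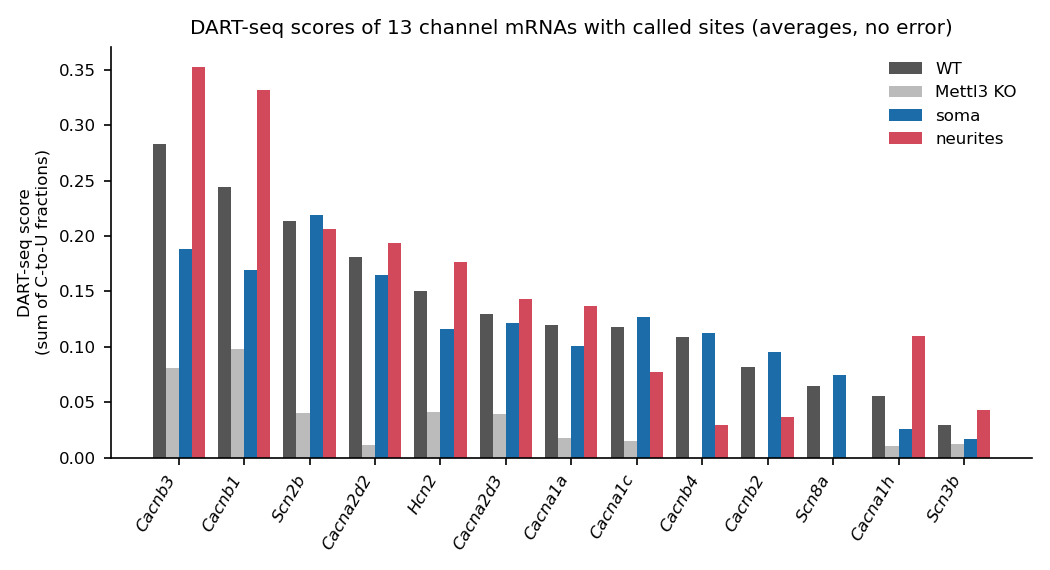
DART-seq scores (by the study's description, sums of average C-to-U fractions over called sites) of 13 channel mRNAs with sites. Shown are the averages deposited for WT, Mettl3 KO, soma and neurites, which pool Ctrl and KCl samples, without error. Cacnb3, Cacnb1 and Hcn2 are higher in neurites than in soma, Scn2b is nearly equal, and Cacnb4, Cacnb2 and Scn8a are lower in neurites.

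Which channel mRNAs are enriched in neurites was asked first in WT Ctrl cultures. Cacnb3, the beta subunit that escorts calcium channel pores to the membrane, and Hcn2, an HCN channel of dendrites, were higher in neurites, and Cacna1d, the L-type pore Cav1.3, was lower. The other 33 members were not past the threshold of 1.5-fold with an adjusted p of at most 0.05. Across all 23200 genes tested, 9.01% were called higher in neurites and 4.54% lower, so 2 of 36 members higher and 1 of 36 lower were shares below or near the background. The median difference of the members was −0.22 on the log2 scale, against −0.10 over all genes tested, and 9 of the 36 had a value above 0. The summed level pointed the other way, with 237 ± 7.42 FPKM in soma and 289 ± 17.8 in neurites; the abundant Cacnb3 and Scn2b were among the members at higher levels in neurites.

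Cacnb3 (chr15:98630840-98644529 of GRCm38, plus strand) stood at 40.4 and 39.1 FPKM in the soma libraries and at 67.1 and 80.8 in neurites. The neurite libraries were both above the soma libraries, and the difference was 0.80 ± 0.12 (log2 ± SE, 1.74-fold, edgeR adjusted p = 0.00228). Hcn2 (chr10:79716634-79736108, plus strand) was at 5.31 and 2.94 FPKM in soma and at 9.07 and 8.48 in neurites, without overlap, a difference of 0.99 ± 0.26 (1.99-fold, adjusted p = 0.0233). The Hcn2 call was lost without either neurite library (adjusted p = 0.0727 and 0.0725) and without soma replicate 2 (adjusted p = 0.132), with a difference between 0.71 and 1.55 over the libraries left out. Cacna1d (chr14:30039939-30491455, minus strand) was at 1.98 and 1.70 FPKM in soma and at 1.32 and 1.20 in neurites, a difference of −0.64 ± 0.15 (1.56-fold, adjusted p = 0.0166). Its call was lost without neurite replicate 2 or either soma library, with differences from −0.71 to −0.46. Over all members, 7 were called without neurite replicate 1 (9.33% of all genes higher and 6.52% lower in that fit), and Cacnb3 alone without neurite replicate 2 or soma replicate 2.

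A further 3 members passed the adjusted p but not the fold: Scn2b with 0.56 ± 0.15 (adjusted p = 0.0275), Scn1a with −0.58 ± 0.11 (adjusted p = 0.00495) and Cacna2d3 with −0.45 ± 0.14 (adjusted p = 0.0464). Scn2b read 30.9 and 25.8 FPKM in soma and 40.7 and 48.3 in neurites, and Scn1a read 5.51 and 5.04 against 3.85 and 3.68. The groups did not overlap for either gene. When the spread was estimated from all 16 libraries, in which the Mettl3 KO replicates lie much farther apart, no gene of the 23200 was called by adjusted p, and the adjusted p of Cacnb3 was 0.740 and of Hcn2 0.699, with 1717 genes at an unadjusted p of at most 0.05. The biological coefficient of variation was 0.150 in the WT fit and 0.372 in the fit to all libraries.

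In KCl-treated WT cultures, Hcn2 and Cacnb3 were again higher in neurites, and no member was lower, against 6.87% of 23028 genes higher and 2.73% lower. Hcn2 was at 1.24 and 1.76 FPKM in soma and at 6.41 and 5.53 in neurites, a difference of 2.00 ± 0.27 (edgeR adjusted p = 0.00144). It was called without each of the 4 libraries in turn. Cacnb3 was at 33.2 and 37.8 FPKM in soma and at 66.5 and 64.1 in neurites (0.89 ± 0.12, 1.86-fold, adjusted p = 0.00173). Scn1a passed the adjusted p but not the fold, with −0.56 ± 0.11 (adjusted p = 0.00739). Cacnb2 had the lowest value among the members averaging 100 counts or more, −0.71 ± 0.25, with an adjusted p of 0.0920. Leaving out WT KCl soma replicate 2 raised the count to 6 members higher (with Hcn3, Cacnb1, Cacna1i and Cacna1h added) and 1 lower (Scn4a), against 7.86% and 2.85% of all genes in that fit. In the fit to all 16 libraries no gene was called, with 1210 genes at an unadjusted p of at most 0.05.

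WT KCl soma replicate 1 held less of several members than replicate 2. Cacnb1 was at 7.52 and 16.6 FPKM in the 2 libraries, Cacna1h at 3.75 and 7.97 and Cacna1i at 0.883 and 1.55. Across the 31 members with a mean count of at least 100, the replicate difference in this group correlated with exon GC content at r = −0.55, against values between −0.22 and 0.41 in the other 7 groups (a description over genes that share 2 libraries). Hcn2, with 65.4% GC, is the most GC-rich member and Cacnb3, with 60.5%, the third. With the trend of each library with GC content taken out, the Hcn2 difference was 0.69 in Ctrl (adjusted p = 0.0457) and 1.47 in KCl (adjusted p = 0.00343), and that of Cacnb3 was 0.60 (adjusted p = 0.00464) and 0.53, the latter with an adjusted p of 0.0110 but below 1.5-fold. Astrocyte markers summed higher in neurites as well, as given above. Gfap was the largest part in WT Ctrl, at 412 and 292 FPKM in neurites against 120 and 123 in soma. Slc1a2, Gja1, S100b and Aqp4 overlapped in WT Ctrl, and the rest of the astrocyte list read higher. After KCl, Slc1a2, Gja1 and Aqp4 read lower in neurites, S100b and Sox9 overlapped, and the rest read higher. In WT Ctrl, oligodendrocyte lineage markers summed to 18.7 and 17.3 FPKM in neurites against 7.39 and 8.13 in soma. Microglia markers summed to 7.79 and 9.52 against 3.43 and 3.02, and those of fibroblasts and vascular cells to 31.1 and 36.6 against 8.86 and 7.82. In the sums of fibroblasts and vascular cells, Rgs5 alone was at 23.3 and 20.0 FPKM in neurites and 4.22 and 4.01 in soma. Neuronal markers summed higher too, to 1212 and 1313 against 1002 and 1031, but not every marker did so. Gad1 was lower in neurites, at 35.7 and 30.9 FPKM against 40.2 and 43.6, as was Syt1, at 57.5 and 54.4 against 62.1 and 59.5. Snap25 overlapped, and the rest of the neuronal list read higher in neurites. The part of these markers in the differences was not tested.

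**Figure D3:**
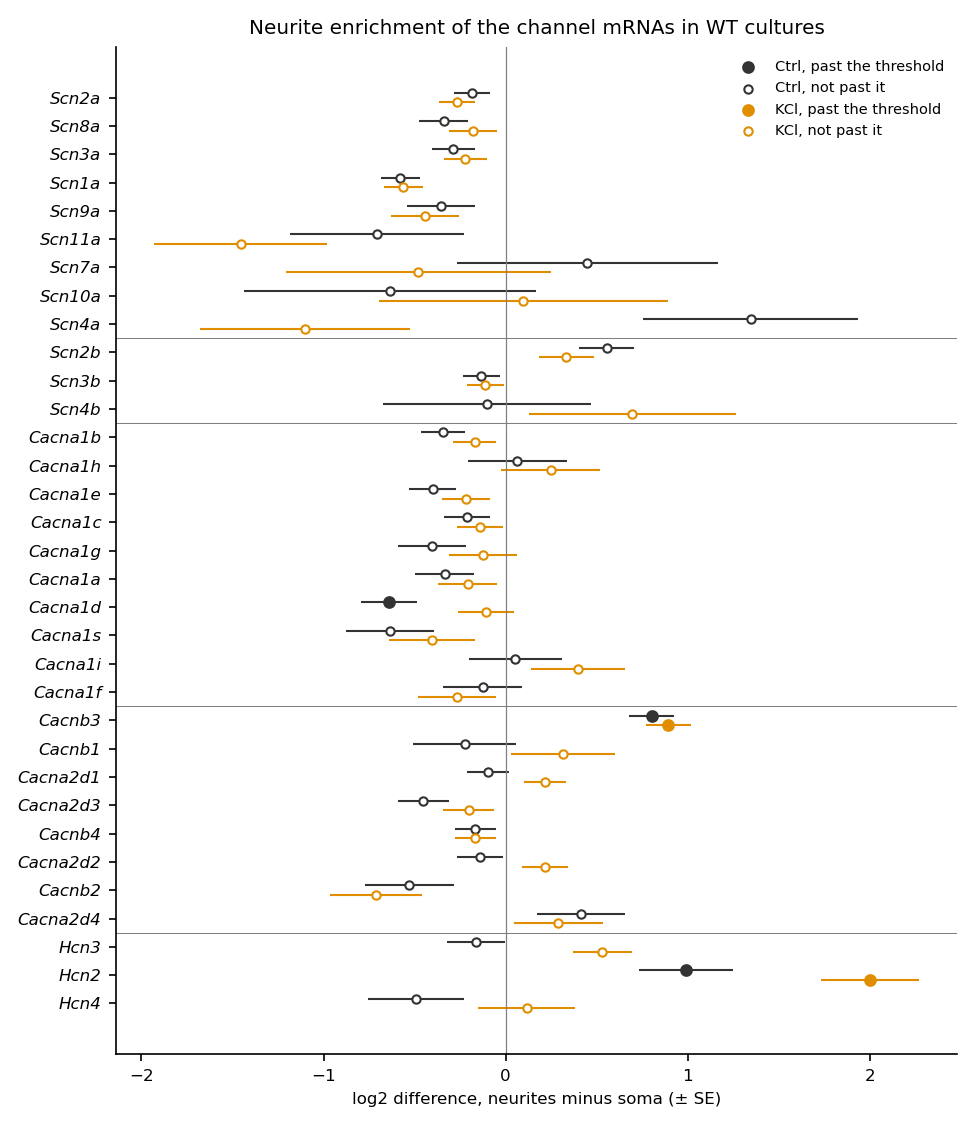
Differences between neurites and soma for 33 members in WT Ctrl (black) and WT KCl (orange), in log2 units with SE, from edgeR fits to the 8 WT libraries; filled points passed 1.5-fold with an adjusted p of at most 0.05. Hcn2 lies at 0.99 in Ctrl and 2.00 in KCl, Cacnb3 at 0.80 and 0.89, and Cacna1d at −0.64 in Ctrl, while most of the other members lie below 0.

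Partner genes of these channels were read from a list of 25, written from general knowledge. The list also held Nalcn, Unc79 and Unc80 of the related sodium leak channel, none of which was called in any main fit. In WT Ctrl, 6 of the 25 were higher in neurites and 1 was lower, against 9.01% and 4.54% of all genes. Fgf13, an intracellular sodium channel modulator, was at 34.2 and 34.9 FPKM in soma and 119 and 147 in neurites (1.85 ± 0.13 log2, adjusted p = 0.000114). Rims1 and Rims2, active zone scaffolds that bind calcium channels, differed by 1.56 ± 0.16 and 0.69 ± 0.11, Erc1, another active zone protein, by 0.74 ± 0.17, Gem, an inhibitor of calcium channels, by 1.46 ± 0.30, and the anchor Ank2 by 0.59 ± 0.15. Pex5l, the TRIP8b protein that controls HCN channel trafficking, was lower in neurites, by −0.84 ± 0.16. After KCl, Fgf13, Rims1 and Kctd3 were higher and Rrad, like Gem a member of the RGK family, was lower in neurites, against 6.87% of all genes higher and 2.73% lower. The median over the list was 0.10 in Ctrl and 0.07 in KCl.

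What depolarization did to the channel mRNAs was asked within each compartment. In WT soma, KCl lowered Hcn2 and called no other member at 2-fold with an adjusted p of at most 0.05, against 3.74% of 24060 genes called higher and 2.96% called lower. The median change was −0.06 over the members and 0.01 over all genes tested. Hcn2 went from 5.31 and 2.94 FPKM in Ctrl to 1.24 and 1.76 in KCl. Both KCl libraries were below both Ctrl libraries, and the change was −1.53 ± 0.26 (2.89-fold, edgeR adjusted p = 0.00344). With the trend on GC content taken out it was −1.12 (adjusted p = 0.00779). Without WT Ctrl soma replicate 1, the library with the highest Hcn2, the change was −0.97, which is below 2-fold; without WT KCl soma replicate 2, 3 members were called (Hcn2, Cacnb1 with −1.41 and Scn4a with 2.29), against 2.86% of all genes higher and 3.53% lower in that fit. In the fit to all 16 libraries the Hcn2 change was −1.46 with an adjusted p of 0.342.

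Scn3b and Scn2a passed the adjusted p in soma but not the fold. Scn3b was at 25.3 and 27.3 FPKM in Ctrl and at 37.5 and 37.6 in KCl (0.44 ± 0.10, adjusted p = 0.0185), and Scn2a at 16.3 and 15.3 against 22.3 and 22.3 (0.42 ± 0.10, adjusted p = 0.0185). The Ctrl and KCl libraries did not overlap for either gene. Cacnb1 read 17.6 and 20.0 FPKM in Ctrl against 7.52 and 16.6 in KCl, and its change of −0.71 ± 0.28 (adjusted p = 0.135) was −0.22 without WT KCl soma replicate 1. Among the calcium channel pores no member had an adjusted p of at most 0.05. Neuronal markers summed to 1338 and 1342 FPKM after KCl against 1002 and 1031 in Ctrl soma. Nefl, a neurofilament subunit, accounted for most of this difference, at 326 and 364 FPKM against 112 and 115, and the other 9 markers summed to 1011 and 978 against 890.0 and 916. Slc17a7, the vesicular glutamate transporter, read lower after KCl, at 17.8 and 21.8 FPKM against 32.5 and 34.6, as did Rbfox3, at 26.7 and 31.8 against 34.0 and 34.2. Gad1 read higher, at 67.3 and 70.2 FPKM against 40.2 and 43.6, as did Map2, Snap25, Stmn2 and Syt1, each without overlap. Syn1 and Tubb3 overlapped between Ctrl and KCl. The part of neuronal markers in these changes was not tested.

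In WT neurites, no member passed the threshold among the 35 tested (Scn10a had too few counts), against 3.33% of 22059 genes called higher and 1.7% lower; 8 members had an unadjusted p of at most 0.05, against 22.8% of all genes, and DESeq2 called no member either. Scn3b and Scn3a passed the adjusted p but not the fold, with 0.46 ± 0.10 (adjusted p = 0.0192) and 0.46 ± 0.12 (adjusted p = 0.0359). Scn3b was at 25.9 and 25.3 FPKM in Ctrl neurites and at 35.3 and 33.5 after KCl, and Scn3a at 6.30 and 5.25 against 7.90 and 7.62. Hcn2 was at 9.07 and 8.48 FPKM in Ctrl and at 6.41 and 5.53 in KCl (−0.52 ± 0.26, adjusted p = 0.269). Cacnb2 read 0.384 and 0.430 FPKM in Ctrl and 0.310 and 0.187 in KCl (−0.67 ± 0.26, adjusted p = 0.145). Cacna1s had a difference of 0.52 ± 0.24 (adjusted p = 0.240).

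The change of neurite enrichment with KCl was tested directly with 1 term per insert, where a call needed 1.5-fold together with an unadjusted p no higher than 0.05. Hcn2 gained 0.97 ± 0.33 on the log2 scale (unadjusted p = 0.0169) and Hcn3 0.71 ± 0.24 (unadjusted p = 0.0173), and Scn4a had −2.28 ± 0.89 (unadjusted p = 0.0306), against 2% of 23200 genes called higher and 1.35% lower. With an adjusted p no gene was called, by edgeR (966 genes at an unadjusted p of at most 0.05), and the adjusted p of these 3 members was 0.999. Hcn3 (chr3:89146074-89160196, minus strand) was at 6.54 and 6.07 FPKM in Ctrl soma and 5.99 and 6.03 in Ctrl neurites, and at 4.10 and 5.60 in KCl soma and 7.31 and 6.59 in KCl neurites. Neurites were above soma in the KCl cultures and below it in Ctrl. Hcn4 moved by 0.66 ± 0.30 (unadjusted p = 0.0560). Without WT KCl insert 1, Hcn2 moved by 0.60 (unadjusted p = 0.113) and Hcn3 by 0.40 (unadjusted p = 0.0852), and no member was called, whereas 7 were called without insert 2 (5.55% of all genes higher and 1.31% lower in that fit). Without WT Ctrl insert 1, neither Hcn2 (0.60, unadjusted p = 0.121) nor Hcn3 (0.66, unadjusted p = 0.0677) was called. Scn4a had a mean count of 21 over the 8 libraries, and its level did not exceed 0.137 FPKM in any WT library.

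**Figure D4:**
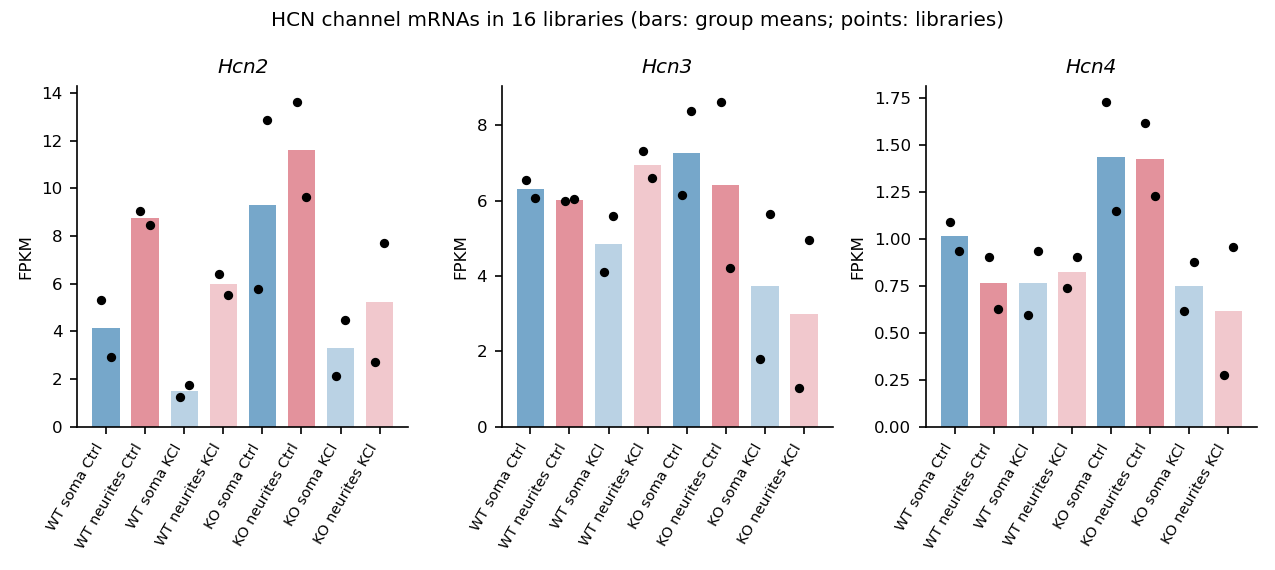
FPKM of the HCN channel mRNAs Hcn2, Hcn3 and Hcn4 in the 16 libraries, with bars for group means and points for the 2 libraries of a group, blue for soma and red for neurites, paler after KCl. Hcn2 is higher in neurites than in soma in WT and falls in WT soma from 5.31 and 2.94 to 1.24 and 1.76 FPKM after KCl, and Hcn3 lies between 5.99 and 6.54 FPKM in the WT Ctrl libraries.

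Among members and partner genes, the largest changes after KCl in both WT compartments were in 3 inhibitors of calcium channels of the RGK family, Gem, Rrad and Rem2. In WT soma, Gem went from 0.165 and 0.227 to 3.26 and 4.001 FPKM (4.14 ± 0.28 log2, adjusted p = 5.8e-06), Rrad from 0.384 and 0.577 to 7.52 and 9.88 (4.12 ± 0.27, adjusted p = 3.94e-06) and Rem2 from 1.21 and 1.35 to 5.17 and 4.95 (1.91 ± 0.20, adjusted p = 0.000121). The same 3 genes rose in neurites, by 2.03 ± 0.26, 3.31 ± 0.28 and 1.61 ± 0.20. These were the partner genes called in either compartment, 3 of 25, against 3.74% of all genes called higher in soma and 3.33% in neurites. The neurite enrichment of Gem changed by −2.11 ± 0.41 (unadjusted p = 0.000626) and that of Rrad by −0.83 ± 0.36 (unadjusted p = 0.0461), and those of Pex5l and Kctd3, which bind HCN channels, by 0.86 ± 0.24 (unadjusted p = 0.00560) and 0.64 ± 0.20 (unadjusted p = 0.0113).

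Whether loss of Mettl3 altered the channel mRNAs was asked in Ctrl soma and neurites. No member was called in either compartment, against 0.0632% of 23750 genes higher and 0.122% lower in soma, and 0.0642% of 21814 genes higher and 0.124% lower in neurites. An unadjusted p of at most 0.05 was reached by 3 of 36 members in soma and 5 of 35 in neurites, against 8.97% and 7.47% of all genes, and DESeq2 called no member. The median change was −0.22 over the members against 0.02 over all genes in soma, and −0.32 against 0.01 in neurites. The Mettl3 KO replicates lay farther apart than those of WT: the replicate differences had an SD of 0.86 over all genes in Mettl3 KO Ctrl soma, against 0.19 in WT Ctrl soma.

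Scn2b was lower in the Mettl3 KO libraries in both compartments without overlap, at 30.9 and 25.8 FPKM in WT soma against 5.97 and 19.5, and at 40.7 and 48.3 in WT neurites against 7.37 and 16.4. Its changes of −1.15 ± 0.81 (adjusted p = 0.726) and −1.90 ± 0.83 (adjusted p = 0.639) did not pass the test, and ranged from −2.28 to −0.54 in soma and from −2.56 to −1.42 in neurites over the libraries left out. Both soma extremes came from leaving out a Mettl3 KO library (replicate 2 and replicate 1). Hcn2 read 5.77 and 12.9 FPKM in Mettl3 KO Ctrl soma against 5.31 and 2.94 in WT (1.17 ± 0.53, adjusted p = 0.550), a difference that was 0.45 without Mettl3 KO replicate 2 and 1.67 without WT replicate 1. In neurites, Scn9a had a difference of −1.14 ± 0.49 (adjusted p = 0.628) and Cacnb2 of −1.01 ± 0.36 (adjusted p = 0.469).

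When KCl-treated Mettl3 KO insert 1, whose markers stood apart, was left out of the fit, 3 members were called lower in Mettl3 KO soma: Scn3a with −1.07 (adjusted p = 0.0342), Scn2a with −0.93 (adjusted p = 0.0320) and Cacna2d1 with −1.01 (adjusted p = 0.0251). In that fit, 0.518% of 23750 genes were called higher and 1.25% lower. The insert left out is not among the Ctrl libraries compared and enters only through the shared scaling and spread. With only the libraries of the groups compared in the fit, no member and 0 of 23750 genes were called (edgeR, 2805 genes at an unadjusted p of at most 0.05). Scn3a was at 6.88 and 6.35 FPKM in WT soma and at 3.85 and 2.66 in Mettl3 KO, and Scn2a at 16.3 and 15.3 against 9.80 and 7.31. Cacna2d1, the alpha2delta subunit that gabapentin binds, was at 6.65 and 6.05 against 3.16 and 3.33. For each of the 3 genes, both Mettl3 KO libraries were below both WT libraries. Over the 16 libraries their adjusted p was 0.394, 0.640 and 0.578. None of these 3 mRNAs had a called DART-seq site. Astrocyte markers summed to 603 and 438 FPKM in Mettl3 KO Ctrl soma against 268 and 269 in WT. Neuronal markers summed to 1034 and 1121 against 1002 and 1031, but the members of this list went different ways. Tubb3 read higher in Mettl3 KO Ctrl soma, at 527 and 495 FPKM against 368 and 361. Map2, Syn1, Syt1, Slc17a7 and Nefl read lower without overlap, and Gad1, Snap25, Stmn2 and Rbfox3 overlapped. In neurites, astrocyte markers summed to 1717 and 732 FPKM in Mettl3 KO Ctrl against 774 and 503 in WT, and neuronal markers to 1049 and 1088 against 1212 and 1313. Oligodendrocyte lineage markers summed to 30.6 and 12.4 FPKM in Mettl3 KO against 7.39 and 8.13 in WT soma, and to 64.8 and 22.7 against 18.7 and 17.3 in neurites. The part of these markers in the differences was not tested.

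**Figure D5:**
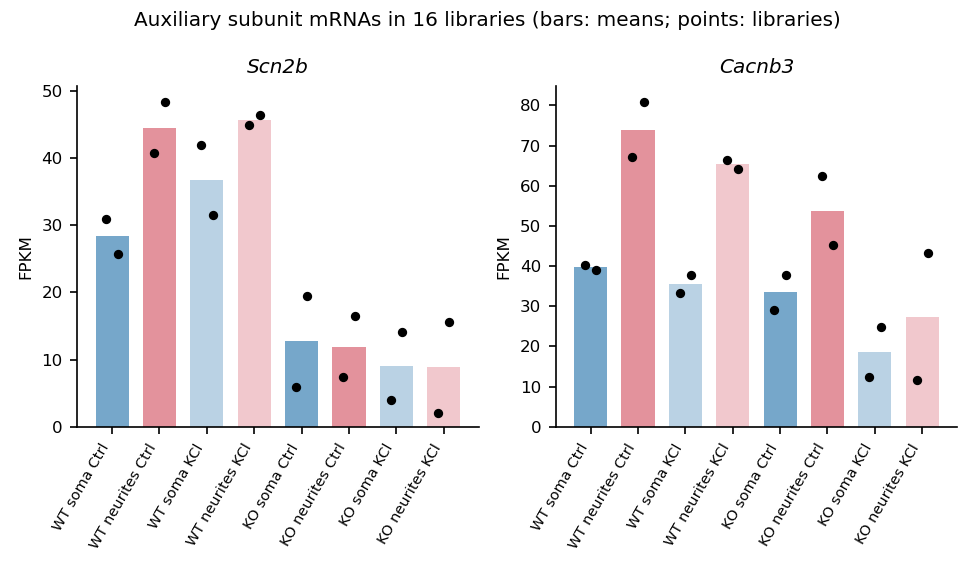
FPKM of the auxiliary subunit mRNAs Scn2b and Cacnb3 in the 16 libraries, with bars for group means and points for the 2 libraries of a group, blue for soma and red for neurites, paler after KCl. Scn2b is lower in every Mettl3 KO library than in any WT library, and Cacnb3 is higher in neurites than in soma in WT.

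The neurite enrichment in Ctrl cultures was also compared between genotypes, with 1 term per insert. At 1.5-fold with an unadjusted p of at most 0.05, no member was called higher and 1 of 36 lower, against 2.91% of 22942 genes higher and 1.28% lower. With an adjusted p no gene was called (edgeR, with 963 genes at an unadjusted p of at most 0.05). No member was called without either WT Ctrl insert, whereas 1 was higher and 6 lower without Mettl3 KO Ctrl insert 1 (13.5% and 7.99% of all genes in that fit), and 1 was higher and 3 lower without insert 2 (4.76% and 3.86%). Cacnb2 was not called, with a difference of −0.76 ± 0.45 (unadjusted p = 0.128). Among the partner genes, Fgf13 and Rims2 were called lower, with −0.91 ± 0.40 (unadjusted p = 0.0494) and −0.64 ± 0.26 (unadjusted p = 0.0399).

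In Mettl3 KO soma, KCl called no member at 2-fold with an adjusted p of at most 0.05 (edgeR, and DESeq2 likewise), against 0.976% of 23679 genes higher and 0.194% lower, and 3 of 36 members had an unadjusted p of at most 0.05, against 16.4% of all genes. The median change was −0.44 over the members and 0.10 over all genes, and 7 of 36 members had a value above 0. This shift rested on KCl-treated Mettl3 KO insert 1: without its libraries the medians were −0.05 and −0.002, and 15 of 35 members were above 0. Hcn2 changed by −1.50 ± 0.55 (adjusted p = 0.227). Hcn2 was at 5.77 and 12.9 FPKM in Mettl3 KO Ctrl soma and at 2.13 and 4.49 after KCl, so both KCl libraries were below both Ctrl libraries, as in WT. Without insert 1 of the KCl-treated cultures, whose neuronal markers were low, its change was −1.10, and without Mettl3 KO Ctrl soma replicate 1 it was −2.06. It was −0.81 without Mettl3 KO Ctrl soma replicate 2 and −2.14 without KCl soma replicate 2. Gem was the partner gene called, from 0.661 and 0.736 to 16.9 and 5.23 FPKM (3.98 ± 0.86, adjusted p = 0.0496). The genotype difference of the KCl response called no gene in either direction (0% of 24058, edgeR, with 493 genes at an unadjusted p of at most 0.05), and 1 member had an unadjusted p of at most 0.05, against 2.05% of all genes. Scn1a had a value of −1.11 ± 0.84 (adjusted p = 0.994), which was −0.50 without Mettl3 KO KCl soma replicate 1 and −2.20 without replicate 2.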

How the data were processed

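The authors aligned paired reads to mm10 with STAR 2.7.7a and counted fragments on Ensembl GRCm38 exons with featureCounts 2.0.1. The deposited counts are not normalized, include reads that map to several places and do not use strand. For DART-seq, the deposited score of an RNA is the authors' sum of average C-to-U fractions over called sites, and the deposited fraction of a site is the authors' WT average. These have no replicates and no depth. The authors' DESeq2 tables gave biotypes and symbols, and their fold changes and p-values were not used.

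Counts were tested with edgeR 4.0.16 (R 4.3.3, quasi-likelihood F-test, TMM, two-sided, Benjamini-Hochberg over all genes), for genes averaging 10 or more counts in the compared libraries, without the 37 mitochondrially encoded genes. WT comparisons used the 8 WT libraries and comparisons with Mettl3 KO all 16. Thresholds followed the study (its KCl rule, set for soma, was used for neurites too): 1.5-fold (2-fold for KCl responses) with an adjusted p of at most 0.05, and 1.5-fold with an unadjusted p of at most 0.05 for changes in neurite enrichment, which were fitted with 1 term per insert. P-values rest on the spread between the 2 libraries of a group, pooled over all groups in the fit and shared across genes by edgeR. Apart from the changes in neurite enrichment, the main fits had no term for insert or litter and took all libraries as independent. By the study's methods, the soma and neurite libraries of an insert are paired, and Ctrl and KCl cultures share litters; libraries with 1 replicate number were taken as paired, which the labels do not spell out. Across genes, the difference between replicates in soma and that in neurites had correlations of −0.11, 0.06, 0.04 and 0.87 over the 4 pairs of groups. Levels are FPKM, counts scaled to exon length and to TMM library size over 16 libraries. Some of the fits were also run on simulated counts. These were drawn independently for each library, without insert or litter effects, so they cannot check the pairing.

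Named members were those past a threshold, the 3 with the highest WT Ctrl soma level in each family, and the 3 with the largest change in each comparison at a mean count of at least 100. The members, lists, fits and thresholds were chosen with earlier results of these data known. Alternatives covered the libraries in the fit, DESeq2 1.42.0, RLE scaling, the filter on counts, the replicate block and each replicate left out. The removal of the GC trend was chosen after seeing the data. Site positions and sequence were read from GRCm38 with GENCODE M21. Results of some members are not reported here; these members stay in the counts, sums and medians.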

Additional observations from a re-analysis of the deposited data

Results flagged for a closer look

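The neurite enrichment in WT differed between KCl and Ctrl for 3 members by the test of the difference itself: Hcn2 by 0.97, Hcn3 by 0.71 and Scn4a by −2.28 on the log2 scale (unadjusted p = 0.0169, 0.0173 and 0.0306). None of the 3 passed an adjusted p (edgeR, 0.999), and Scn4a had a mean count of 21.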

How the results depend on the processing

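Counts of members called (of 36, in either direction) were recomputed under each alternative. For neurite enrichment in WT Ctrl (3 called), the fit to all 16 libraries gave 0, DESeq2 gave 5 and no filter on low counts gave 5. Over all genes, the main fit called 2091 higher and 1054 lower of 23200. These alternatives called 0, then 2321 and 919 of 23200, then 2432 and 1377 of 47796. For WT KCl (2 called), the same alternatives gave 0, 4 and 4, and removal of the GC trend, chosen after seeing the data, gave 1. All genes called went from 1582 higher and 629 lower of 23028 to 0, to 1621 and 786, and to 1929 and 861 of 47796. With the GC trend removed they were 1255 and 948 of 23028. For the KCl response in WT soma (1 called), all 16 libraries gave 0 and no filter gave 2. All genes called went from 899 higher and 712 lower of 24060 to 320 and 21, and to 1139 and 907 of 47796. For the change of neurite enrichment with KCl (3 called), all 16 libraries gave 1 and an adjusted p gave 0. All genes called went from 465 higher and 314 lower of 23200 to 99 and 192, and to 0. For Mettl3 KO against WT in soma (0 called), leaving out insert 1 of KCl-treated Mettl3 KO gave 3 and no filter gave 1. All genes called went from 15 higher and 29 lower of 23750 to 123 and 296, and to 327 and 178 of 50033. With only the libraries compared, 0 members and 0 genes were called. In neurites (0 called), no filter gave 1, with all genes from 14 and 27 of 21814 to 211 and 142 of 50033. For the change of neurite enrichment in Mettl3 KO (1 called), no filter gave 2 and an adjusted p gave 0. All genes called went from 668 higher and 294 lower of 22942 to 2129 and 547 of 50033, and to 0. For the KCl response in Mettl3 KO soma (0 called), no filter gave 2. All genes called went from 231 higher and 46 lower of 23679 to 1440 and 585 of 50033. The cause of these differences between settings was not tested.

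With 1 replicate left out, the counts ranged from 1 to 7 for neurite enrichment in WT Ctrl, 2 to 7 in WT KCl, 0 to 3 for the KCl response in WT soma, 0 to 7 for the change with KCl, 0 to 1 for Mettl3 KO in soma, 0 to 7 for the change in Mettl3 KO, 0 to 2 for the KCl response in Mettl3 KO soma and 0 to 1 for its genotype difference. The number of all genes called also moved with the library left out, so these ranges are not a result about the members. Among the named genes and the levels of the members per group, 257 values kept their side of the threshold or moved by less than the spread, 27 lost it and 7 gained it, and no named gene reversed under the alternatives.

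The replicate block, with insert or replicate number as a term, changed no call of a named gene and left the counts of neurite enrichment, KCl and Mettl3 KO responses as they were, for example 3 and 2 for neurite enrichment in WT Ctrl and KCl. Without the block, the change with KCl still gave 3 and the change in Mettl3 KO gave 0. Depth limits Scn10a, Scn4a, Scn7a and Scn4b most, all under 0.1 FPKM in WT Ctrl soma.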
